A study of Homo sapiens with 4 samples.

Results

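Integrins are cell-surface receptors made of 1 alpha and 1 beta chain, and laminins, collagens, thrombospondins and fibronectin are the extracellular matrix proteins that many of them bind. The genes were taken by symbol, and the set was chosen with earlier results of these data known. It holds integrin alpha chains (numbered chains, ITGAV and ITGAE), integrin beta chains, laminin chains and collagen chains. It also holds the thrombospondins THBS1 to THBS4, and the matrix proteins FN1, SPARC, HSPG2 and AGRN. A RefSeq gene table held 85 such protein-coding genes, of 20056 protein-coding genes in all. Of 14858 peaks in the deposited list, 44 lay in 27 of the 85 genes, and 9 of these peaks, in 7 genes, had a q of 0.01 or less.

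The study enriched RNA bound to YTHDF2 from HCCLM3 cells, a highly metastatic human hepatocellular carcinoma line, by RNA immunoprecipitation and sequencing (RIP-seq). The labels gave 2 YTHDF2 RIP libraries and 2 input libraries, all from unmodified (WT) cells with no treatment named. The data were 1 list of peaks at which RIP fragments exceeded a background taken from the input, with no value per library, so no spread between replicates can be given and no test between conditions was possible. No control pulldown was among the samples, so a peak stands for more RIP than input signal, and binding by YTHDF2 was not tested.

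YTHDF2 is a cytosolic reader of N6-methyladenosine (m6A), a methyl mark that on mRNA is placed mostly in long internal exons, around stop codons and in 3' UTRs, and it is best known for recruiting deadenylases to marked mRNAs. Integrins link the matrix to the actin cytoskeleton through adaptors such as talin and kindlin and signal through focal adhesion kinase. In liver, hepatic stellate cells make most of the fibrillar collagen, while carcinoma cells carry integrins and secrete some matrix proteins of their own.

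The fold enrichment and the q of each peak are the authors' values. RIP fragments at the summits and their backgrounds were recovered from each peak's fold and p. The background was in turn a whole number of input fragments multiplied by a scale. A scaled input fragment counted 0.68 at the summit itself, 0.214 when the caller used a window of 1 kb and 0.0214 when it used 10 kb. A floor of 0.533, the genome-wide level, applied to 14 of the 44 member peaks. For each peak the ratio of RIP fragments to this background is given below with a 95% interval for the counting error of both RIP and input. The floor was taken as exact. The caller adds 1 to both sides of its fold, so its folds lie below these ratios where fragments are few. A summit is the place where RIP fragments are most numerous, which raises both measures.

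Of the 85 genes, 31.8% had any peak, against 34.7% of all protein-coding genes. A q of 0.01 or less was reached by a peak in 7 members (8.24%), against 18.4% of all protein-coding genes. Among genes with a peak, 25.9% of members and 53.2% of all protein-coding genes had one that passed. These shares are descriptions with no test, and a peak list does not say which members the cells express. Most member peaks were shallow. They had a median of 4.5 RIP fragments, against 19 for the peaks of all protein-coding genes, and 22 of 44 (50.0%) rested on 4 or fewer fragments, against 29.1%.

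**Figure D1:**
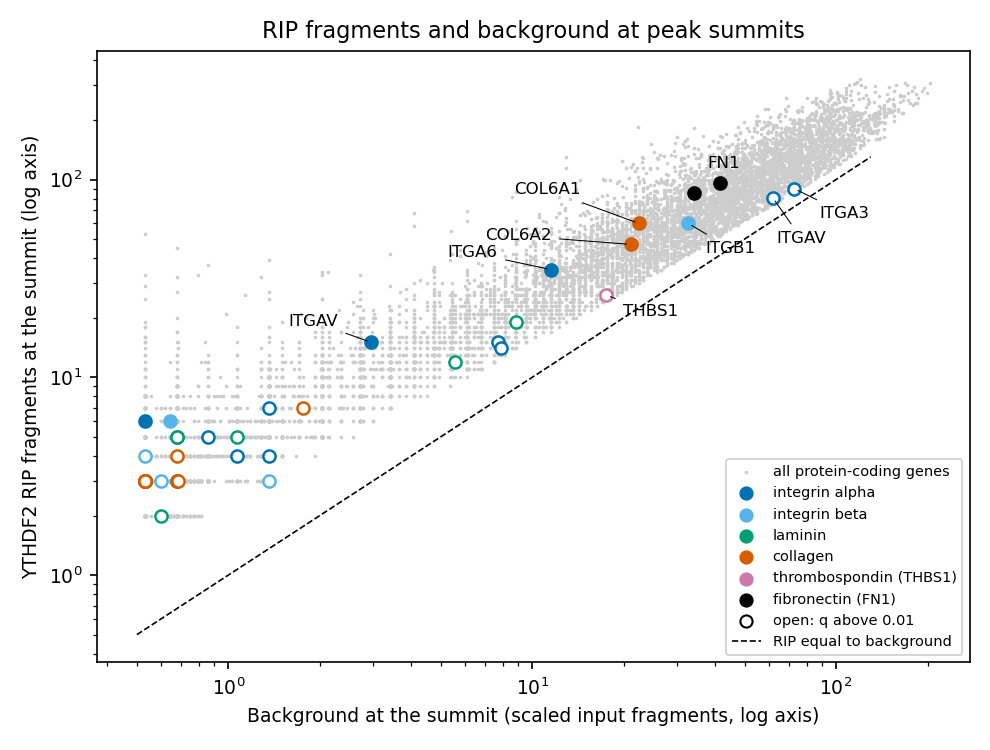
RIP fragments (vertical, log axis) against background (horizontal, scaled input fragments, log axis) at the summit of each peak, with the 44 member peaks coloured by family over the 12235 peaks of all protein-coding genes in grey. Filled symbols have a q of 0.01 or less and open ones do not, and most member peaks sit at the low end of both axes, where several symbols lie on top of each other.

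Among integrin alpha chains, 8 of 13 had a peak and 3 passed (23.1%, against 18.4% of all protein-coding genes): ITGA6, ITGAV and ITGA11. ITGA6, the alpha chain of laminin-binding integrins, had 35 RIP fragments in its 3' UTR (chromosome 2, 172506042 to 172506371, hg38) over a background of 11.6, which came from 54 input fragments in 1 kb. The authors' fold was 2.87 (−log10 q 5.06), and the ratio was 3.03 (1.92 to 4.72). A second ITGA6 peak in exon 11 had 14 RIP fragments over a background of 7.92, and its ratio of 1.77 had an interval that included 1 (0.882 to 3.35). Both summits also lie in PDK1-AS1, an overlapping non-coding gene. Peaks carry no strand, so reads of the 2 genes cannot be told apart. The same limit holds for all 11 of the 44 member peaks with another gene at the summit. The others lie in ITGA1 (exon 25 and 3' UTR), ITGA5, ITGA9, ITGB5, LAMA4, LAMB4 and the COL27A1 3' UTR.

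ITGAV, the alpha chain of receptors that bind the RGD motif of fibronectin and vitronectin, had 2 peaks of unlike depth and fold. In exon 6 (chromosome 2, 186637100 to 186637414) it had 15 RIP fragments over a background of 2.96, a fold of 4.05 (−log10 q 3.99) and a ratio of 5.08 (2.77 to 8.67). That background came from 138 input fragments in 10 kb, the highest of the caller's levels there. In the 3' UTR (chromosome 2, 186680019 to 186681010) it had 81 RIP fragments against 91 input fragments at the summit, which are 61.9 after scaling. The 3' UTR fold was 1.30 with a −log10 q of 0, and the ratio of 1.31 (0.958 to 1.79) did not exceed 1 beyond counting error. The exon peak thus had the higher ratio on fewer fragments, and the 2 intervals as computed did not overlap. The exon interval rests on input averaged over 10 kb and the 3' UTR interval on input at the summit. They are therefore not like for like, and a difference between the 2 peaks was not tested.

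ITGA11, a collagen-binding alpha chain, had the highest fold of any member, 4.57, in an intron 18 peak (chromosome 15, 68323461 to 68324014). It rested on 6 RIP fragments over the genome-wide floor, with a −log10 q of 2.93 and a ratio of 11.3 whose interval ran from 4.13 to 24.5. No ITGA11 peak lay in an exon or UTR.

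The remaining alpha chains with peaks did not pass. ITGA3, a laminin-binding chain, had the deepest peak of the integrins, with 90 RIP fragments against 107 input fragments in its 3' UTR, and the lowest fold of all members, 1.23 (ratio 1.24, 0.924 to 1.65). ITGA5, the alpha chain of the main fibronectin receptor, had 15 RIP fragments in its 3' UTR (fold 1.84, ratio 1.95, 0.990 to 3.64). A promoter-class ITGA5 peak at the start of the gene had 7 RIP fragments against 2 input fragments, with a fold of 3.39 (−log10 q 1.37). GPR84-AS1 overlaps both ITGA5 summits. ITGA1 and ITGA2, collagen-binding chains, had 3 peaks each, all on 3 to 5 fragments, the highest being ITGA2 exon 7 at a fold of 3.57. ITGA9 had 1 intron peak of 4 fragments. ITGA4, ITGA7, ITGA8, ITGA10 and ITGAE had no peak.

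Of 8 beta chains, ITGB1, ITGB5 and ITGB6 had a peak and only ITGB1 passed (12.5%, against 18.4% of all protein-coding genes). ITGB1 is the beta chain shared by the collagen, laminin and fibronectin receptors. Its deepest peak (chromosome 10, 32900240 to 32900923) had 60 RIP fragments against 48 input fragments, a fold of 1.81, a −log10 q of 2.40 and a ratio of 1.84 (1.24 to 2.75). The list classed it as promoter because the start of SNORA86, a small nucleolar RNA gene, lies 549 bp away, but its summit was 99.1% of the way from the 5' to the 3' end of ITGB1. A second ITGB1 peak in intron 1 had 6 RIP fragments over a background of 0.642, a fold of 4.26, a −log10 q of 2.45 and a wide ratio interval of 1.99 to 57.7. The last, also in intron 1, had 3 fragments and did not pass. ITGB5 and ITGB6, partners of ITGAV, had intron peaks only, of 3 or 4 fragments. ITGB2, ITGB3, ITGB4, ITGB7 and ITGB8 had no peak.

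**Figure D2:**
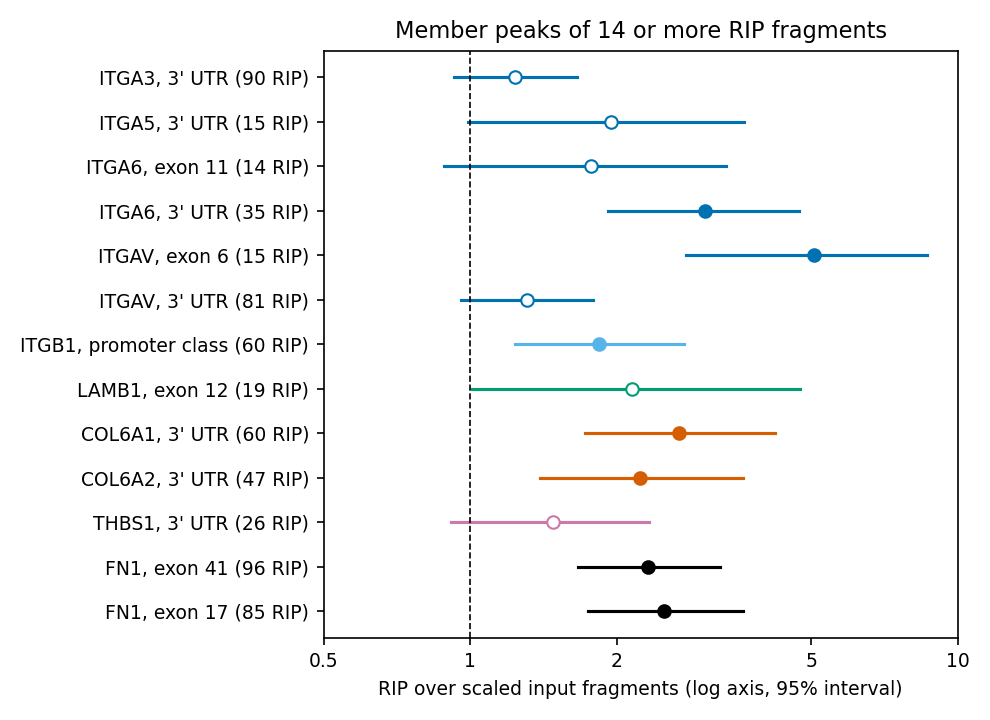
Ratio of RIP fragments to scaled input fragments (horizontal, log axis) with its 95% counting interval for the 13 member peaks of 14 or more RIP fragments, filled where the q is 0.01 or less. The filled peaks (FN1, COL6A1, COL6A2, the ITGA6 3' UTR, the ITGAV exon and ITGB1) and, barely, LAMB1 have intervals above the dashed line at 1, while those of the ITGA6 exon and of the ITGA3, ITGA5, ITGAV and THBS1 3' UTR peaks include it.

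Fibronectin (FN1), the matrix glycoprotein that assembles into fibrils through ITGA5 with ITGB1, had the 2 highest −log10 q values among members. In exon 41 of 47 (chromosome 2, 215371648 to 215372035) it had 96 RIP fragments against 61 input fragments, a fold of 2.28, a −log10 q of 9.39 and a ratio of 2.32 (1.66 to 3.25). In exon 17 of 47 (chromosome 2, 215407845 to 215408185) it had 85 RIP fragments against 50 input fragments, a fold of 2.46, a −log10 q of 9.76 and a ratio of 2.50 (1.74 to 3.62). The intervals of the 2 FN1 peaks overlapped almost wholly, and neither peak lay in the 3' UTR. SPARC, a collagen-binding matricellular protein, and the heparan sulfate proteoglycans HSPG2 (perlecan) and AGRN (agrin) had no peak.

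Collagens had a peak in 9 of 44 genes, and COL6A1 and COL6A2 passed (4.55%, against 18.4% of all protein-coding genes). With COL6A3 these encode the 3 chains of the common form of collagen VI, a microfibrillar collagen. COL6A1 had 60 RIP fragments against 33 input fragments at the end of its 3' UTR (chromosome 21, 46004817 to 46005180), a fold of 2.60, a −log10 q of 7.54 and a ratio of 2.67 (1.72 to 4.22). COL6A2 had 47 RIP fragments against 31 input fragments at the end of its own (chromosome 21, 46132670 to 46132984), a fold of 2.17, a −log10 q of 3.52 and a ratio of 2.23 (1.39 to 3.63). The summits lay 99.5% and 99.7% of the way along their genes, and the 2 ratios had overlapping intervals. Both peaks ran past the annotated gene ends (46005048 and 46132848), so neither collagen passed when the whole peak had to lie inside the gene. COL6A3, the remaining chain, had a single exon 25 peak of 3 fragments over the genome-wide floor, which did not pass. Its background was at the floor, whereas those of COL6A1 and COL6A2 were 22.4 and 21.1.

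The other collagens with peaks were COL6A6, COL9A2, COL16A1, COL23A1, COL24A1 and COL27A1, and each of these peaks rested on 3 to 7 RIP fragments with none passing. COL27A1, a fibrillar collagen, had the most peaks of any member, 5, along its whole length, in the promoter class, introns 4 and 14, exon 28 and the 3' UTR. The 3' UTR peak had 7 fragments and a fold of 2.90, and the other 4 had 3 fragments each. The remaining 35 collagens had no peak, among them COL1A1, COL1A2 and COL3A1, the main fibrillar collagens of liver scar, and COL4A1 and COL4A2 of basement membranes.

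The list named MIR455, a microRNA gene within COL27A1, for the intron 14 and exon 28 peaks, because it assigns each peak to the nearest transcription start. By the list's own distances these peaks began 17232 and 48884 bp downstream of that start, so neither peak overlaps the microRNA. The 2 mature products are shown to make clear which RNA the list names (RefSeq, GRCh38.p14, plus strand of chromosome 9, 114209449 to 114209470 and 114209487 to 114209507), with the seed (bases 2 to 8) in capitals.
hsa-miR-455-5p: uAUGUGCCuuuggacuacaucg
hsa-miR-455-3p: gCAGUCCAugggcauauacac

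Laminins, the heterotrimers of basement membranes, had a peak in 5 of 12 genes and none passed (against 18.4% of all protein-coding genes). LAMB1, the beta chain of the most widespread laminins, had 19 RIP fragments against 13 input fragments in exon 12 (chromosome 7, 107974736 to 107975187), a fold of 2.03 and a ratio of 2.15 with an interval of 1.01 to 4.74. LAMA3, LAMA4, LAMB4 and a second LAMB1 peak had 2 to 5 fragments each, with LAMA4 exon 31 the highest at a fold of 3.57 (−log10 q 1.41). Of 4 thrombospondins, which are matricellular proteins, only THBS1 had a peak. Its 3' UTR had 26 RIP fragments over a background of 17.6, a fold of 1.45 and a ratio of 1.48 (0.914 to 2.33), which did not pass.

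Depth and position went together among the 44 peaks, and likewise over all protein-coding genes. For the latter the median peak had 44 RIP fragments in 3' UTRs, 20 in exons and 3 in introns. Of the 9 member peaks with 20 or more RIP fragments, 6 lay in 3' UTRs, 2 in FN1 exons and 1 at the 3' end of ITGB1. Their 3' UTR share was 66.7%, against 48.7% of such peaks of all protein-coding genes. Of the 9 member peaks, 6 passed a q of 0.01 (66.7%), against 67.8% of the 6113 such peaks of all protein-coding genes. Of the 35 peaks with fewer fragments, 3 passed (8.57%), against 13.8% of 6122. Member peaks of 20 or more fragments had folds of 1.23 to 2.87. All 17 intron peaks rested on 2 to 6 fragments, and 2 passed (ITGA11 and ITGB1). That is 11.8%, against 6.6% of the intron peaks of all protein-coding genes. Of 14 exon peaks, 9 rested on 5 or fewer fragments.

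**Figure D3:**
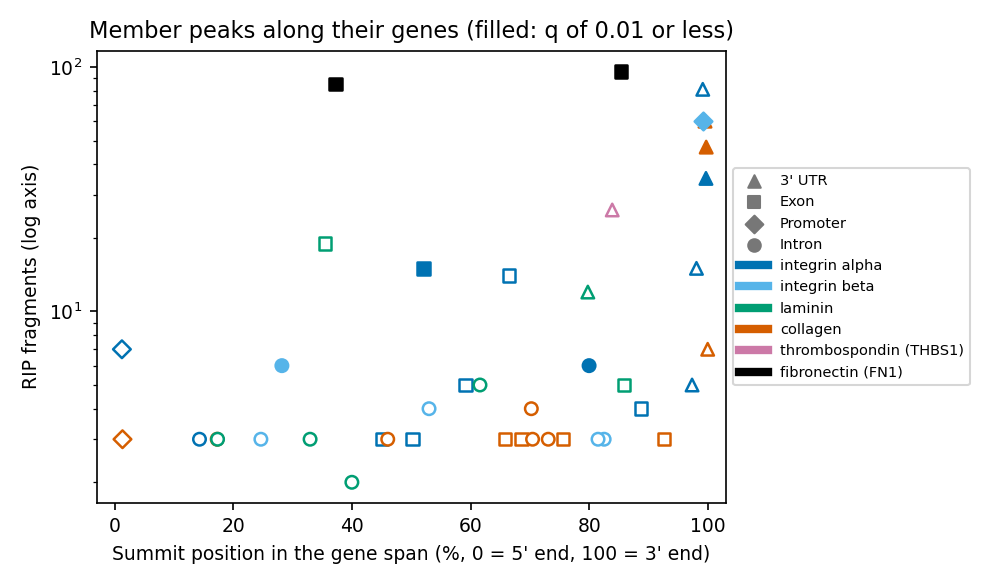
RIP fragments (vertical, log axis) against the position of the summit in the gene (horizontal, percent of the gene span from the 5' end) for the 42 member peaks whose gene has a known strand here, coloured by family, with symbols for the annotated class and filled where the q is 0.01 or less. The peaks of 20 or more fragments shown lie near the 3' end except for those of THBS1 and FN1, and the COL6A1 and ITGB1 symbols overlap at 60 fragments.

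By class, introns held 17 of 44 member peaks (38.6%, 95% Clopper-Pearson interval 24.4 to 54.5), against 22.9% of the 12235 peaks of all protein-coding genes. Exons held 14 (31.8%, 18.6 to 47.6), against 23.3%, and 3' UTRs 10 (22.7%, 11.5 to 37.8), against 33.0%. The promoter class held 3 (6.82%, 1.43 to 18.7), against 18.1%. No member peak lay in a 5' UTR, where the interval for 0 of 44 is 0 to 8.04% and a count of 0 allows up to 6.82% by the limit of 3 counts, against 1.41%. The intervals cover counting error only, and several peaks share a gene. Intron peaks had a median of 3 fragments both in members and in all protein-coding genes.

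**Figure D4:**
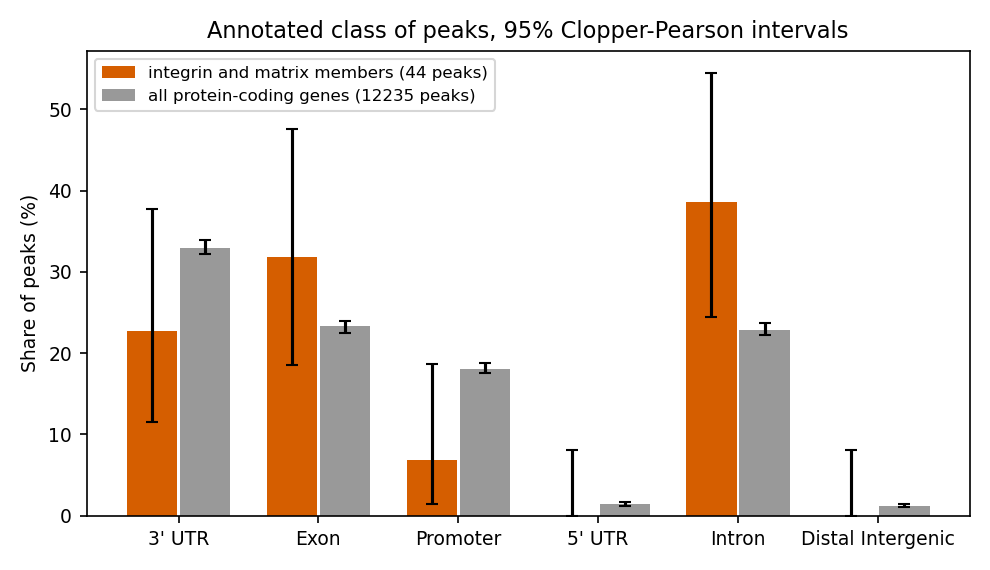
Share of peaks (vertical, percent) in each annotated class for the 44 member peaks (orange) and the 12235 peaks of all protein-coding genes (grey), with 95% Clopper-Pearson intervals. The intron bar is the tallest for members at 38.6%, and the 3' UTR bar is the tallest for all genes at 33.0%.

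The best peak of each member, by fold, had a median log2 fold of 1.38, the same as that of all protein-coding genes with a peak. This equals the fold of 2.61 that 3 fragments reach over the genome-wide floor, which 12 member peaks in 10 genes share. Integrins had a median best-peak log2 fold of 1.71 over 11 genes and the matrix genes 1.38 over 16. The medians of fragments at these best peaks were 6 for integrins, 4.5 for matrix genes and 21 for all protein-coding genes.

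Genes that work with the members were taken as 5 lists with 186 genes, chosen with earlier results of these data known. Of these genes, 76 had a peak and 44 (23.7%) one that passed, against the 18.4% of all protein-coding genes. Their median best-peak log2 fold was 1.34 over a median of 23 fragments. Integrin adaptors and signalling partners had a peak in 25 of 38 genes and 15 passed (39.5%, against the same 18.4%). The highest folds among those that passed were those of CRK (5.60 over 13 fragments, 3' UTR), an adaptor that binds phosphorylated paxillin, and TNS4 (4.24 over 9 fragments, exon), a tensin that binds beta-chain tails. RSU1, of the ILK complex, had 4.17 over 23 fragments in its 5' UTR, and NEDD9, a docking protein of the Cas family, 3.60 over 28 in its 3' UTR. PTK2, focal adhesion kinase, had 3.15 over 75 fragments and PXN, paxillin, 2.87 over 115, both in 3' UTRs.

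Other matrix receptors had a peak in 15 of 28 genes and 6 passed (21.4%, against 18.4% of all protein-coding genes). CD9, a tetraspanin that associates with beta-1 integrins, led with 108 RIP fragments in its 3' UTR and a fold of 4.40. SDC1, a syndecan, had 2.68 over 31 fragments, CD63, a tetraspanin, 2.32 over 159, and SLC3A2, the CD98 heavy chain, 2.06 over 85. Other matrix proteins had a peak in 13 of 48 genes and 6 passed (12.5%, against the same 18.4%). These were led by SMOC1 (6.19 over 41 fragments, intron), LTBP4 (3.64 over 26, 3' UTR), and TGFBI (3.35 over 16, 3' UTR). NTN4, a netrin of basement membranes, passed through its 3' UTR (1.91 over 92), while its highest fold (2.93) came from an intron peak of 4 fragments above a q of 0.01. SMOC1 and LTBP4 encode a matricellular calcium-binding protein and a latent TGF-beta-binding protein.

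Matrix proteases and their inhibitors had a peak in 14 of 37 genes and 10 passed (27.0%, against 18.4% of all protein-coding genes). CTSL, the lysosomal cathepsin L, had 4.84 over 96 fragments in its 3' UTR. The membrane sheddases ADAM17 and ADAM9 had exon peaks of 4.28 over 12 fragments and 3.27 over 40, and ADAM12 an intron peak of 3.58 over 11. Enzymes and factors of collagen synthesis and export had a peak in 9 of 35 genes and 7 passed. As a share of the 35 genes, those that passed were slightly above the 18.4% of all protein-coding genes. PCOLCE2, an enhancer of procollagen cleavage, had 3.64 over 15 fragments, MIA2, a procollagen export factor, 3.04 over 30, and PLOD3, a lysyl hydroxylase, 2.90 over 69. P4HB, the beta subunit of prolyl hydroxylase, had 2.81 over 174 fragments. All 4 of these peaks were in 3' UTRs.

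**Figure D5:**
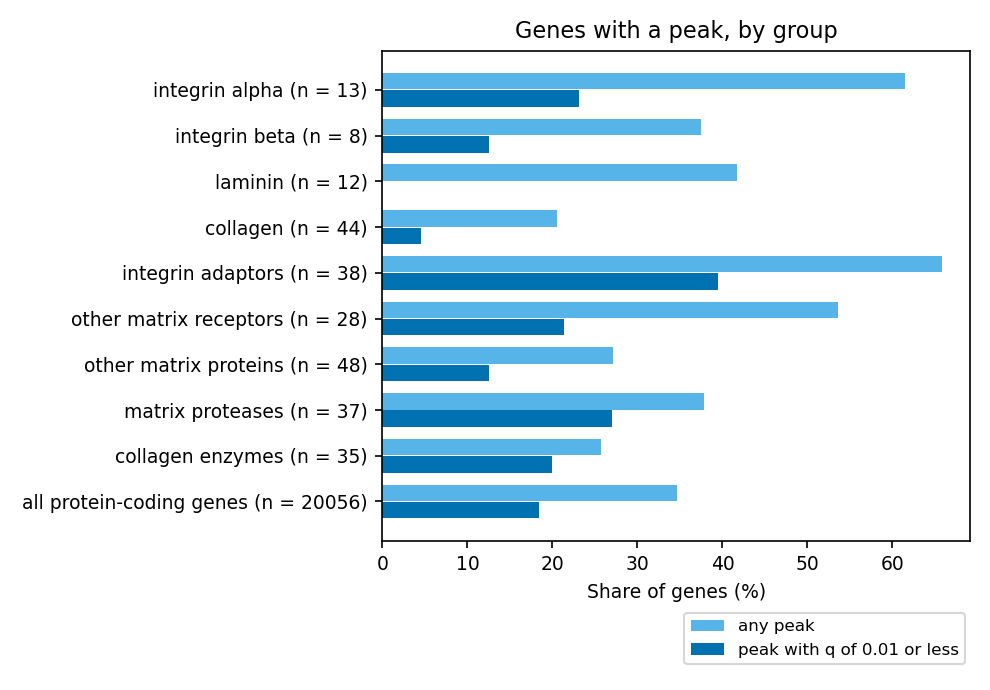
Share of genes (horizontal, percent) with any peak and with a peak of q of 0.01 or less, for the integrin alpha, integrin beta, laminin and collagen families, the 5 lists of partner genes and all protein-coding genes. No laminin passed and collagens reached 4.55%, while integrin adaptors reached 39.5%, against 18.4% of all protein-coding genes.

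Cell markers could be looked up only as peaks, which give no expression levels. Of 17 hepatocyte markers, APOB and HNF4A had a peak and neither passed, and ALB and AFP had none. Of 11 fibroblast and stellate cell markers, LUM and RGS5 had a peak and neither passed. That list holds COL1A1, COL1A2 and COL3A1, which are members too. Of 9 endothelial markers PECAM1 had a peak that did not pass, and of 10 blood and immune markers CD68 and HBB had a peak and only HBB passed, over 8 fragments. Whether RNA of other cells gave part of the member peaks was not tested.

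The list's own gene names differ from the gene that holds the summit for 23 of the 44 member peaks. Under the list's names 25 members would have a peak, 17 of them shared with the 27 above. A peak would pass in 7 members, 4 of them shared (8.24% of members, against 16.8% of all protein-coding genes under those names). COL6A2, ITGA6 and ITGA11 would be lost from those that pass. COL8A2 and COL2A1 would be among the 3 gained, through peaks that lie in TRAPPC3 and SENP1.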

How the data were processed

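YTHDF2 RIP and input libraries of HCCLM3 cells were grouped by their labels. Per the submitters' processing notes, HISAT2 and MACS2 were used with the hg38 build. Versions, options, thresholds and the way replicates were combined were not stated there. Replicates are not stated to come from separate cultures. Sequencing depth is unknown.

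Per the file headers, each deposited peak has a fold enrichment (the authors' RIP-to-background ratio), a −log10 p, a −log10 q, a score, a width and an annotation. The deposited score was not used.

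Each exon or intron peak was given to the gene in its annotation, and other peaks to the gene whose span in a RefSeq table (GRCh38.p14) holds the summit, protein-coding genes first. RIP fragments k and background b were solved from fold = (k + 1) / (b + 1) and the Poisson p. Every −log10 p was met within 0.000189. Of 4580 backgrounds above 20, 86.6% were whole numbers of summit input fragments within 0.02, where chance gives 4%, and the others fitted a window of 1 or 10 kb. In the whole list 6 peaks, none of them in a member, matched no window. Fragment length was taken as the shortest peak, 315 bp. On 2000 simulated peaks, all with whole numbers of input fragments at the summit, RIP and input fragments were recovered in 100%. Fold and p were simulated by the same formulas, so this shows only that the formulas can be solved. Backgrounds from a window of 1 or 10 kb or from the floor were not simulated. Gene strand came from RefSeq, or from the list where RefSeq gave none. Strands were the same for 99.6% of 6289 genes found in both.

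Ratio intervals are exact conditional binomial (Clopper-Pearson), or exact Poisson over the floor, at 95%. They hold for counting error alone, because without molecular identifiers PCR copies are not separate molecules, and they are not adjusted for the number of peaks. A peak passed with the authors' q of 0.01 or less. Every member with a peak is named except for an item that is not reported here, and in each partner list up to 4 genes with the highest best-peak fold among genes that passed, whichever of the gene's peaks that was. PTK2 and PXN were added after their values were seen. Members and lists were chosen with earlier results of these data known. All 186 partner genes matched the table. Software was Python 3.11.15, numpy 2.4.6, pandas 2.3.3 and scipy 1.17.1.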

Additional observations from a re-analysis of the deposited data

How the results depend on the processing

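No paired analysis was possible because the list holds no value per library, and leaving out a replicate was not possible for the same reason. The 27 members with a peak became 17 with exon and UTR peaks only, 10 with peaks at a q of 0.05 or less only, and 17 with 5 or more RIP fragments, a setting chosen after seeing the data. Over all protein-coding genes the 6955 with a peak became 4935, 4259 and 5784. The 7 members with a peak at a q of 0.01 or less became 3 (COL6A1, FN1 and ITGA6; 3.53% of members, against 10.9% of all protein-coding genes) at a −log10 q of at least 5. They became 19 (22.4% of members, against 28.4% of all protein-coding genes) when the ratio interval had to exceed 1 instead. That setting was chosen after seeing the data and was not adjusted for the number of peaks. It takes the floor as exact, so 3 RIP fragments over the floor pass it, at an authors' −log10 q of 0.166. A peak of 3 RIP fragments against 1 input fragment at the summit, as in COL16A1, did not (0.354 to 232). The members that passed were 5 to 10 under the other settings. With the whole peak inside the gene 5 passed (against 2799 of 20056 protein-coding genes), without COL6A1 and COL6A2. The deepest ITGB1 peak also runs past its annotated gene end (32900318), so ITGB1 stayed only through its intron 1 peak of 6 fragments. With exon and UTR peaks only 5 passed (against 13.7%), without ITGA11 and ITGB1. With no second gene at the summit 6 passed (7.06%), without ITGA6, and the share over all protein-coding genes was not computed for this setting. A q of 0.05 or less added ITGA2, ITGA5 and LAMA4 (11.8% of members, against 21.2% of all protein-coding genes). The median best-peak log2 fold of 1.38 was 1.38 as a mean over each gene's peaks, at the lower limit of the median's own interval (1.38 to 1.69). It was 0.99 with 20 or more fragments (1.13 over all protein-coding genes). The 3' UTR share of 22.7% was 10.8% when the whole peak had to lie inside the gene, which drops peaks that run past a 3' end, and 66.7% with 20 or more fragments (48.7% over all protein-coding genes). The 44 partner genes that passed (23.7%, against 18.4% of all protein-coding genes) became 29 (15.6%, against the same 2799 genes) with the whole peak inside the gene and 27 (14.5%, against 10.9%) at a −log10 q of at least 5. All other settings stayed within 1.5 times a count or within the interval of a median or share. Few fragments limit most member peaks: with 3 RIP fragments over the floor the ratio of 5.63 had an interval of 1.16 to 16.4.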
